A study of Mus musculus with 15 samples.

Results

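The genes described here are Tbr1 and 9 named genes that lie around it on mouse chromosome 2, namely Rbms1, Tank, Psmd14, Slc4a10, Dpp4, Gcg, Fap, Ifih1, and Gca. They are 10 of the 19475 genes with deposited values, were listed by name, and were found in the table by their Ensembl identifiers. RNA-Seq was carried out on 15 mouse embryos on the C57BL/6J background at E16.5, and the genotypes were WT, Tbr1+/K228E, and Tbr1K228E/K228E, with 3 females and 2 males each. The labels give the tissue as brain, the series text as whole brain, and the results of the study as forebrain. The mutant allele is a knock-in of the K228E substitution, lysine to glutamate, in exon 1 of Tbr1, and it was made with loxP sites around it and with a neomycin cassette. The cassette was removed by a cross with protamine-Cre mice, which make Cre in the male germ line, so that the allele is a constitutive one. The altered locus lies on the chromosome that also carries the 9 other genes, so that effects of the mutant protein and of the altered locus itself cannot be told apart in these embryos. The strain of the stem cells used to make the knock-in is not given in the sources used here, so that any variants of that strain still linked to Tbr1 cannot be told apart from the mutation either. The study included both mutant genotypes to look for effects of gene dosage.

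TBR1 is a T-box transcription factor of newborn glutamatergic neurons. In the embryonic cerebral cortex it is found in neurons of the preplate, the subplate, and the deep layers, where it is needed for their identity and for the corticothalamic projection, and Tbr1 is among the genes in which de novo mutations have been found repeatedly in autism. The T-box is the domain that contacts DNA, through a core sequence of the form GGTGTGA. The neighbouring genes are unrelated to Tbr1 in function, and several of them are used mainly outside neurons.

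In order along chromosome 2 (GRCm38), Rbms1 (ENSMUSG00000026970, minus strand, chr2:60750193-60963192) came first, followed by Tank (ENSMUSG00000064289, plus strand, chr2:61578585-61654171) and Psmd14 (ENSMUSG00000026914, plus strand, chr2:61711694-61800376). Tbr1 itself (ENSMUSG00000035033, plus strand, chr2:61802930-61814114) begins 2553 bases beyond the end of Psmd14. Downstream lie Slc4a10 (ENSMUSG00000026904, plus strand, chr2:62046462-62326730), Dpp4 (ENSMUSG00000035000, minus strand, chr2:62330073-62412231), Gcg (ENSMUSG00000000394, minus strand, chr2:62474530-62483650), and Fap (ENSMUSG00000000392, minus strand, chr2:62500943-62574075). The last are Ifih1 (ENSMUSG00000026896, minus strand, chr2:62595798-62646255) and Gca (ENSMUSG00000026893, plus strand, chr2:62664285-62694109). No member overlaps another, and the shortest gaps are the one between Psmd14 and Tbr1 and the 3342 bases between the convergent genes Slc4a10 and Dpp4. The sequencing kit keeps no strand information, so reads from genes on opposite strands cannot be told apart where they overlap. By whole gene spans, introns included, the last 696 bases of Gca overlap Kcnh7, and the minus-strand pseudogene Gm13590 lies inside Gca. The span of Dpp4 shares 55161 bases with that of the antisense gene Gm13561, which was not analysed here. How much of these overlaps lies in exons was not computed.

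The mutated codon is shown because it defines the groups. It is the codon that K228E changes, AAA in the reference, in the longest Tbr1 transcript of GENCODE M21, which has 681 codons. It lies at chr2:61805389-61805391 of GRCm38 in exon 1 of 6, with 8 bases between it and the end of that exon. The reference sequence of the plus strand at chr2:61805359-61805399 is given with this codon in capitals.
Tbr1 K228E codon: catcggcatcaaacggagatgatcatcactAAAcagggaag

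The promoters of the 4 genes that passed the test in Tbr1K228E/K228E mice are shown because the comparisons by gene turn on them. Each is a RefSeq window (GRCm38.p6) of 300 bases, from 250 before the annotated start to 50 after it, 5′ to 3′ on the strand of the gene. Capitals mark TATAAA or its reverse complement TTTATA, the letters of a TATA box. The windows are chr2:61804203-61804502 for Tbr1 (plus strand), chr2:62483604-62483903 for Gcg (minus strand), chr2:61578336-61578635 for Tank (plus strand), and chr2:62046265-62046564 for Slc4a10 (plus strand). The Tbr1 window lies inside the gene span given above, which begins at chr2:61802930. RefSeq thus places the start of Tbr1 farther downstream than the annotation used here for distances and gaps. Tank has 4 such windows and Slc4a10 has 2, and the printed 1 of each is that whose start lies nearest to the annotated start of the gene. The letters are in 2 of the 4 Tank windows, which overlap and share the same site, and in 1 of the 2 of Slc4a10.
Tbr1: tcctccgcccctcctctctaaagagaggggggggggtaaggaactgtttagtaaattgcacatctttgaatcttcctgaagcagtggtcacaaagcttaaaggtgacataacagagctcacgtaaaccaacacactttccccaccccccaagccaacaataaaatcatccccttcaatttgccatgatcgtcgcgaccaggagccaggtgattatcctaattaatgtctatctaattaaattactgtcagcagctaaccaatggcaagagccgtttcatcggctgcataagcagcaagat
Gcg: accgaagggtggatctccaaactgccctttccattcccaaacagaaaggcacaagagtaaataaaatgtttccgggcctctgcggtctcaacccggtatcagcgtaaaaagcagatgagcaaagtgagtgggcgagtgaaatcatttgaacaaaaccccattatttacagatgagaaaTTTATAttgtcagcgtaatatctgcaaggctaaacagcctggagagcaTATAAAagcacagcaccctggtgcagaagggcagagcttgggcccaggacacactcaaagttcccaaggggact
Tank: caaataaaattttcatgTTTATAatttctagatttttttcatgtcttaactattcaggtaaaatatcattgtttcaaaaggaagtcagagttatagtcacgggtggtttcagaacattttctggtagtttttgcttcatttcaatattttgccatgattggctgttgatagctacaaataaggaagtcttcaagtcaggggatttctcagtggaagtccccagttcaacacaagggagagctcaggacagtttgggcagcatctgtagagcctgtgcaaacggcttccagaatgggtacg
Slc4a10: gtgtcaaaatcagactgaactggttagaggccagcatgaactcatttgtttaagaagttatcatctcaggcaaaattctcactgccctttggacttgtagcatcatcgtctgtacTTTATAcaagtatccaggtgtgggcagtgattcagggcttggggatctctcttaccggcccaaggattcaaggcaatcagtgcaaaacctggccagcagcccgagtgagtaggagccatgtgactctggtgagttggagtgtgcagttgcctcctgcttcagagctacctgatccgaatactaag

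RefSeq windows were matched for 9 of the 10 genes, 14 windows in all, and none was matched for Fap. GTGTGA, which is part of every GGTGTGA, was searched on both strands. It was in 0 of these 14 windows and in 14.5% of all 32851 windows of the same length, whereas GGTGTGA was in 3.98% of them. TATAAA on either strand was in 5 of the 14 windows, which belong to 4 genes (Tank, Slc4a10, Dpp4, and Gcg), and in 13.6% of all windows. The Tank windows that hold it overlap and share the same site. Windows of a gene are thus not separate units, which limits both comparisons with all windows. In the Gcg window it began 24 bases before the start on the strand of the gene, and again 72 bases before the start on the opposite strand. A match of letters is a description of the sequence, and the windows cover a small part of each locus.

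The libraries were similar in depth, with an estimated 26.3 to 38 M reads per embryo (M, megareads), and any pair of embryos that shared a genotype had r of 0.971 to 0.988 over the log2 values. Values are normalized read counts, that is, estimated counts divided by a size factor for each embryo. Genotypes were compared with limma on log2(value + 1) in a single fit of all 15 embryos, and a gene was said to pass where its adjusted p over the 16507 tested genes was below 0.05. All 6 forebrain markers were present in every genotype. Their summed count ranged from 10914 to 26173 in WT, from 17487 to 26245 in Tbr1+/K228E, and from 13078 to 24458 in Tbr1K228E/K228E embryos. The sum of 17 hindbrain and spinal cord (Hox) genes ranged from 11.9 to 3287 in WT, from 4.21 to 3961 in Tbr1+/K228E, and from 11.0 to 577 in Tbr1K228E/K228E embryos, and that of 10 meningeal genes from 472 to 33344, from 4416 to 18856, and from 650.2 to 22115. In Tbr1K228E/K228E against WT mice, 1 of 14 tested hindbrain genes and 2 of 10 meningeal genes had a log2 fold change above 0 (medians −1.52 and −1.03). In Tbr1+/K228E against WT mice, 2 of the 14 and 9 of the 10 did (medians −1.79 and 0.58). Between Tbr1K228E/K228E and Tbr1+/K228E mice, 7 of the 14 and 0 of the 10 did (medians −0.10 and −1.27). None of these passed. With both scores as covariates, the 4 genes that passed in Tbr1K228E/K228E against WT mice (Tank, Tbr1, Slc4a10, and Gcg) passed again, while the call for Tank between the mutant genotypes was lost (adjusted p = 0.0532 with limma). In such bulk samples, fewer cells of a type and less RNA per cell cannot be told apart.

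Per kilobase of annotated exon, the level in WT embryos was highest for Psmd14 (931 ± 78.5, SD, n = 5) and Tbr1 (645 ± 191, SD, n = 5), and the ranges of these overlapped. Slc4a10 (269 ± 52.5, SD, n = 5) and Rbms1 (251 ± 43.6, SD, n = 5) came next, with overlapping ranges. Tank (92.9 ± 2.34, SD, n = 5) and Gca (66.3 ± 15.6, SD, n = 5) followed, again with overlap. The lowest levels per kilobase were those of Dpp4 (13.5), Gcg (10.3), Ifih1 (8.42), and Fap (6.39), each of which overlapped the next. In Tbr1K228E/K228E embryos, Tbr1 was the first in this order with 2072 ± 576 (SD, n = 5) per kilobase, and its lowest embryo, 1303, lay above the highest of Psmd14, 1091. Gcg stood at 44.9 per kilobase there, above Dpp4 with 27.2, although their ranges overlapped.

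**Figure D1:**
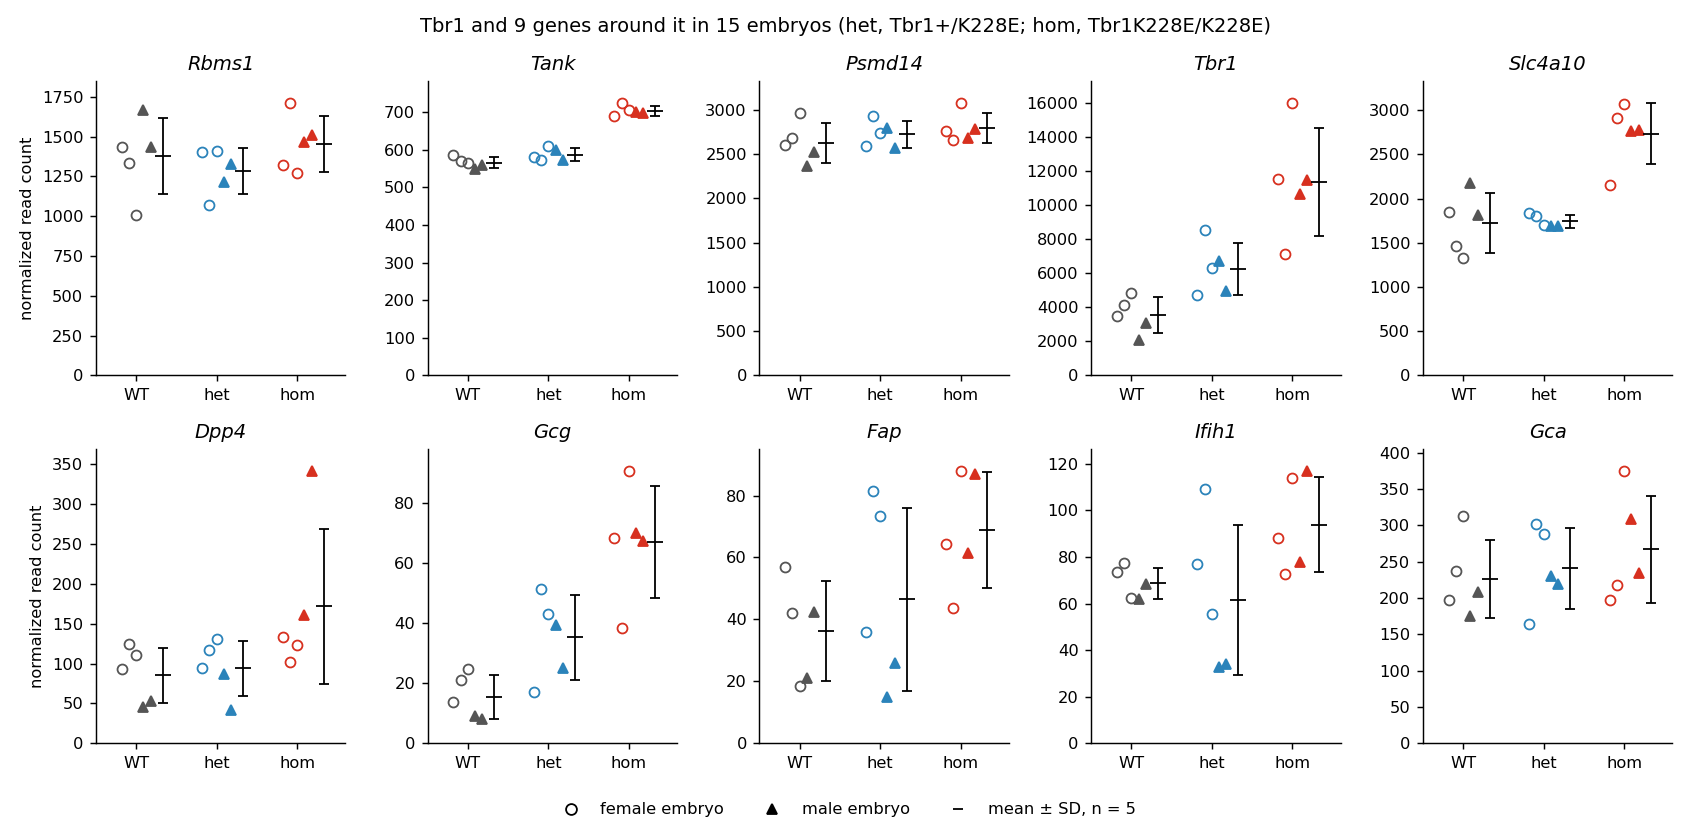
Normalized read count (y axis, linear, from 0) of the 10 genes in each of the 15 embryos by genotype (x axis), with circles for females, triangles for males, and bars for the mean ± SD of 5 embryos. The Tbr1K228E/K228E embryos lie above all WT embryos for Tank, Tbr1, and Gcg, and Tank varies least among embryos of a genotype.

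Tbr1 was higher in Tbr1K228E/K228E than in WT embryos by 1.69 on the log2 scale (standard error 0.23), and the Tbr1+/K228E embryos lay between. Its normalized read count was 3517, 4122, 4871, 2097, and 3079 in WT replicates 1 to 5. It was 4738, 8543, 6337, 6743, and 4985 in the Tbr1+/K228E embryos, and 11529.7, 7148, 16015, 10671, and 11467 in the Tbr1K228E/K228E embryos. Every Tbr1K228E/K228E embryo exceeded every WT embryo, while the lowest Tbr1+/K228E embryo lay below the highest WT embryo and the highest Tbr1+/K228E embryo above the lowest Tbr1K228E/K228E embryo. Against WT, Tbr1 passed in Tbr1K228E/K228E mice (adjusted p = 0.00437 with limma, 8th of all tested genes by p). In Tbr1+/K228E mice its log2 fold change, 0.85 (standard error 0.23), did not pass (adjusted p = 0.999 with limma) although the exact permutation test (two-sided) gave p = 0.0159. On the log2 scale the Tbr1+/K228E mean lay 0.00 from the midpoint of the other genotypes (95% interval −0.43 to 0.43), which is 50.1% of the way from WT to Tbr1K228E/K228E. The mean counts were 3537 in WT, 6269 in Tbr1+/K228E, and 11366 in Tbr1K228E/K228E embryos. On this linear scale the Tbr1+/K228E mean lay nearer to WT.

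The spread of Tbr1 within a genotype followed the forebrain markers. The score of these markers, the mean log2 value of Emx1, Emx2, Neurod6, Neurod2, Fezf2, and Tle4, was lowest in WT replicate 4 (10.2) and Tbr1K228E/K228E replicate 2 (10.6), which also held the lowest Tbr1 value of their genotypes. It was highest in WT replicate 3 (11.4), Tbr1+/K228E replicate 2 (11.3), and Tbr1K228E/K228E replicate 3 (11.3), which held the highest Tbr1 values. Over the 15 embryos, deviations of Tbr1 from the genotype mean correlated with those of the score with r = 0.93. With the score as a covariate, an alternative added after the data had been seen, the standard error of the Tbr1 fold change fell and the fold changes against WT were 1.58 (standard error 0.09) in Tbr1K228E/K228E and 0.65 (standard error 0.09) in Tbr1+/K228E mice. The first passed (adjusted p = 7.21e-07 with limma), and the second did not (adjusted p = 0.0929 with limma). Between the mutant genotypes, Tbr1 passed with the score as a covariate, with a log2 fold change of 0.93 (adjusted p = 0.000417 with limma). Some of these markers may themselves respond to TBR1, which was not tested beyond the comparisons of genotypes. In these, 0 of the 6 markers passed. Against WT, 4 were above 0 in Tbr1K228E/K228E mice (median log2 fold change 0.03) and 6 in Tbr1+/K228E mice (median 0.16). Deviations of Tbr1 correlated about as closely with those of a score of 7 GABAergic neuron markers (r = 0.91). The relation was therefore not particular to the forebrain markers.

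**Figure D2:**
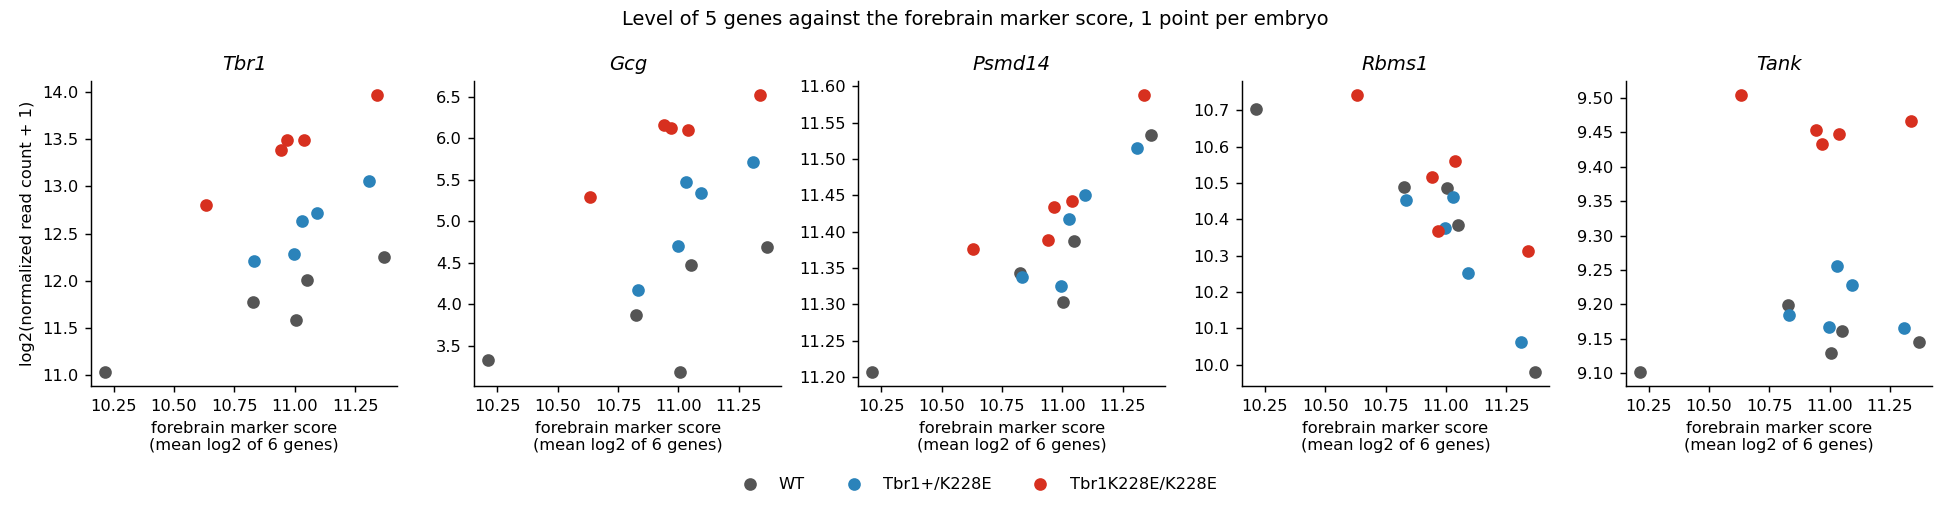
log2(normalized read count + 1) of 5 genes (y axes) against the forebrain marker score, the mean log2 value of 6 genes (x axis), with 1 point per embryo and colours for the genotypes. Tbr1 and Gcg climb with the score, Tbr1 in 3 separate series, Psmd14 climbs in a common series, Rbms1 descends, and Tank does not follow the score (r = 0.08 for the deviations).

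Gcg encodes proglucagon, the precursor of glucagon and of the glucagon-like peptides, and is known in the brain from neurons of the caudal brainstem. Here its deviations from the genotype mean correlated with those of the hindbrain and spinal cord score with r = −0.56. With those of the forebrain score, r was 0.74. Over the log2 values of all 15 embryos, genotype differences included, its pattern was the one most like that of Tbr1 among the tested genes (r = 0.97), while by deviations within genotypes it was 149th of 16506 (r = 0.89) and Psmd14 was closer (43rd, r = 0.93). The normalized read count of Gcg was 13.7, 21.2, 24.8, 9.05, and 8.09 in the WT embryos. It was 17.0, 51.5, 43.2, 39.5, and 25.01 in Tbr1+/K228E, and 68.4, 38.3, 90.8, 70.1, and 67.5 in Tbr1K228E/K228E embryos. As with Tbr1, no Tbr1K228E/K228E embryo overlapped the WT embryos, and the Tbr1+/K228E embryos overlapped both. The log2 fold change was 2.13 (standard error 0.35) in Tbr1K228E/K228E mice, which passed (adjusted p = 0.0245 with limma), and 1.17 (standard error 0.35) in Tbr1+/K228E mice, which did not (adjusted p = 0.999 with limma, two-sided exact permutation p = 0.0317). Replicate 2 had the lowest and replicate 3 the highest Gcg value of the Tbr1K228E/K228E embryos, as for Tbr1. With counts below 100 in every embryo, Gcg is among the less precisely measured of the 10 genes, and its call was lost in 7 of 10 fits that left out an embryo (adjusted p of limma between 0.0157 and 0.0929 over the 10 fits).

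Enzymes that process proglucagon were listed beside it, together with receptors of the glucagon family, which include Gipr, the receptor of GIP. None of the 5 that were tested passed in any comparison. Their log2 fold changes in Tbr1K228E/K228E against WT mice ran from −0.25 to 0.47 (the latter for Gipr), with 3 above 0.

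Tank encodes an adaptor that binds TRAF proteins and the kinases TBK1 and IKKε in innate immune signalling. It had a small difference and the smallest spread of the genes that passed. In WT embryos its normalized read count was 587, 572, 565, 549, and 559, and in Tbr1+/K228E embryos it was 581, 574, 610.2, 599, and 574. In Tbr1K228E/K228E embryos it was 689.9, 725, 706, 699.96, and 697. All 5 Tbr1K228E/K228E embryos lay above all 10 others, and the coefficient of variation within a genotype was 1.90% to 2.77%. The log2 fold change against WT was 0.31 (standard error 0.04), a 1.24-fold difference, and it passed (adjusted p = 0.00437 with limma, 5th of all tested genes by p). In Tbr1+/K228E mice it was 0.05 (standard error 0.04, 95% interval −0.04 to 0.14), and the two-sided exact permutation p was 0.0635. The log2 fold change between the mutant genotypes was 0.26 (adjusted p = 0.0227 with limma), although this call was lost whenever 1 of the compared embryos was left out (adjusted p of limma between 0.0509 and 0.0994). The Tbr1+/K228E mean of Tank lay 17.0% of the way from WT to Tbr1K228E/K228E, and was 0.10 below the midpoint on the log2 scale (95% interval −0.18 to −0.03). This departure from the midpoint did not pass over all genes (adjusted p = 0.993 with limma).

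Unlike Tbr1, Tank did not vary with the forebrain markers within a genotype (r = 0.08, n = 15), and its fold change with that score as a covariate was again 0.31. None of the 11 partners of TANK that were tested, which include Tbk1, Ikbke, and the TRAF genes, passed in any comparison. Their log2 fold changes in Tbr1K228E/K228E against WT mice lay between −0.05 and 0.03, with 3 above 0 and a median of −0.01.

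Slc4a10 encodes a sodium-coupled bicarbonate transporter of neurons and of the choroid plexus. Its normalized read count was 1844, 1466, 1325, 2178, and 1813 in WT embryos. It was 1837, 1804, 1700.3, 1689, and 1688 in Tbr1+/K228E, and 2153, 2911, 3071, 2764, and 2772 in Tbr1K228E/K228E embryos. The Tbr1+/K228E embryos all lay inside the WT range, and the Tbr1K228E/K228E embryos lay above it except replicate 1, which was below WT replicate 4. The log2 fold change was 0.68 (standard error 0.12) in Tbr1K228E/K228E against WT mice and passed (adjusted p = 0.0318 with limma). That call was lost in 8 of 10 fits that left out an embryo, and with the replicate block it had an adjusted p of 0.128 from limma. The Tbr1+/K228E embryos gave a log2 fold change of 0.04 (95% interval −0.21 to 0.28), which is 5.45% of the way from WT to Tbr1K228E/K228E. The distance below the midpoint, 0.30 on the log2 scale (95% interval of the difference −0.52 to −0.09), did not pass over all genes (adjusted p = 0.993 with limma). Between Tbr1K228E/K228E and Tbr1+/K228E mice the embryos did not overlap, and the log2 fold change of 0.64 had an adjusted p of 0.0614 from limma.

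WT replicate 4, the WT embryo with the highest Slc4a10 value, had the lowest Tbr1 value and the lowest forebrain score. Deviations of Slc4a10 correlated with those of the score with r = −0.56 and with those of Tbr1 with r = −0.49 (n = 15), and the latter was −0.22 without the 2 embryos farthest from the median. With the score as a covariate, Slc4a10 passed against WT (0.71, adjusted p = 0.004 with limma) and against Tbr1+/K228E mice (0.61, adjusted p = 0.0141 with limma). Of the other Slc4 transporters, 8 were tested and 0 passed in any comparison, with log2 fold changes between −0.10 and 0.39 in Tbr1K228E/K228E against WT mice.

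**Figure D3:**
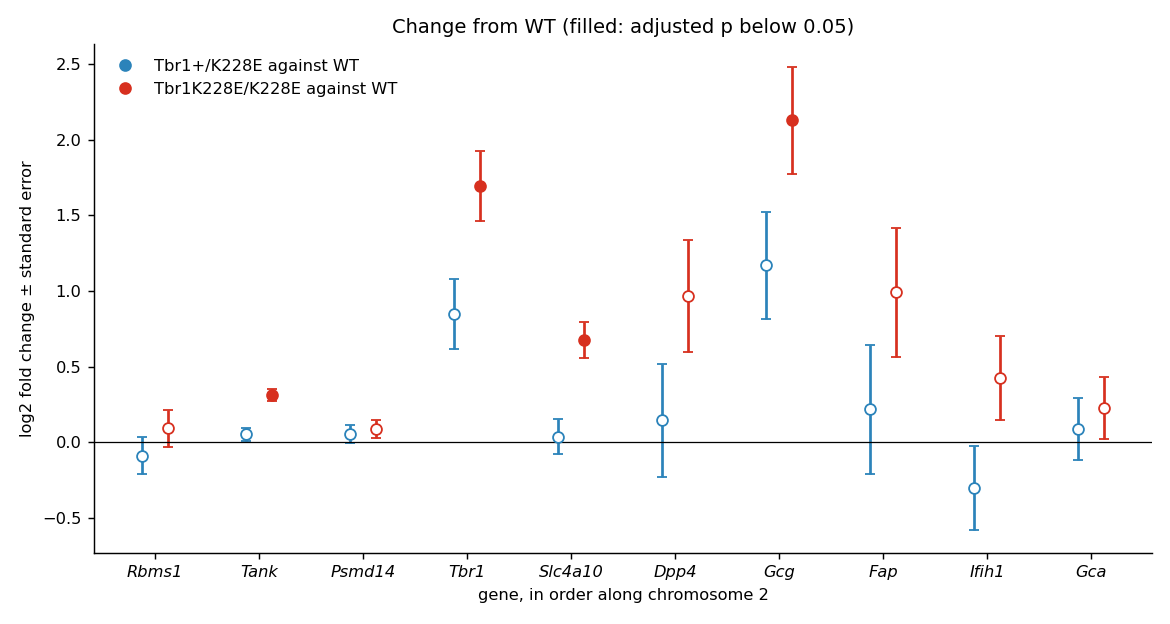
log2 fold change against WT with its standard error (y axis) for the 10 genes in their order along chromosome 2 (x axis), in Tbr1+/K228E (blue) and Tbr1K228E/K228E embryos (red), with filled points where the adjusted p of limma was below 0.05. Filled red points stand at Tank, Tbr1, Slc4a10, and Gcg, no blue point is filled, and all red points lie above 0.

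Dpp4 and Fap encode related serine proteases of the cell surface that cleave after proline, and DPP4 inactivates glucagon-like peptides. Dpp4 had a normalized read count of 93.2, 124, 110.4, 46.1, and 52.6 in WT, and of 94.1, 117, 131, 86.6, and 41.4 in Tbr1+/K228E embryos. In Tbr1K228E/K228E embryos it was 133, 102, 123, 161, and 342, with replicate 5 far above the rest. Against WT, the log2 fold change was 0.97 (standard error 0.37), which did not pass over all genes (two-sided exact permutation p = 0.0476), and it was 0.68 without that embryo. Fap had 56.9, 42.0, 18.5, 21.0, and 42.4 in WT, 36.1, 81.6, 73.6, 15.1, and 26 in Tbr1+/K228E, and 64.3, 43.7, 88.0, 61.5, and 87.0 in Tbr1K228E/K228E embryos. For Fap, 4 of the 5 Tbr1K228E/K228E embryos lay above the WT range, while the Tbr1+/K228E embryos spanned nearly the whole range of all embryos. For Fap in Tbr1K228E/K228E mice it was 0.99 (standard error 0.43), which did not pass either (two-sided exact permutation p = 0.0159). Fap is known from activated fibroblasts. Its deviations correlated with those of Ifih1 with r = 0.76 (n = 15). Among the marker scores they correlated most with that of red blood cells (r = 0.78, and 0.65 for Ifih1), followed by endothelium (0.58), choroid plexus (0.53), and meninges (0.48), whose part in the result was not tested. With the hindbrain and meningeal scores as covariates the log2 fold change of Fap was 1.05. The 7 other prolyl peptidases that were tested had log2 fold changes between −0.05 and 0.03 in Tbr1K228E/K228E against WT mice, and 0 passed in any comparison.

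Ifih1 encodes MDA5, a receptor for double-stranded RNA in the cytoplasm that activates interferon genes. It was the gene of the 10 with the lowest Tbr1+/K228E values relative to WT. Its normalized read count was 73.4, 77.4, 62.6, 62.0, and 68.4 in WT embryos, 76.8, 109, 55.5, 32.8, and 34.0 in Tbr1+/K228E embryos, and 88.4, 72.6, 114, 77.7, and 117 in Tbr1K228E/K228E embryos. The Tbr1+/K228E embryos spread on both sides of the narrow WT range, with both males lowest. Its log2 fold change was 0.42 (standard error 0.28) in Tbr1K228E/K228E and −0.30 (standard error 0.28) in Tbr1+/K228E mice against WT, and neither passed (two-sided exact permutation p = 0.0317 and 0.357). Of 15 tested RIG-I-like receptors and interferon-induced genes, 0 passed. In Tbr1K228E/K228E against WT embryos, 2 were higher and 13 lower, with a median log2 fold change of −0.26, beside 48.7% of all genes above 0. Against Tbr1+/K228E embryos, 1 was higher and 14 were lower (50.2% of all genes were above 0), while Ifih1 was higher by 0.72. Several of the 15 had low counts, which limits this count. The means in Tbr1K228E/K228E and WT embryos were 3.04 and 8.13 for Oas1a, and 4.00 and 8.51 for Ifit1. Comparisons that involve the same embryos are not independent, and these counts are descriptions.

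No difference beyond the spread between embryos was detected for Psmd14, Gca, or Rbms1. Psmd14 encodes the deubiquitinating subunit of the proteasome lid, and its end is the one nearest to the start of Tbr1. Its normalized read count ranged from 2363 to 2963 in WT, from 2565 to 2927 in Tbr1+/K228E, and from 2657 to 3078 in Tbr1K228E/K228E embryos, and the log2 fold change in Tbr1K228E/K228E mice was 0.09 (standard error 0.06, 95% interval −0.04 to 0.22). The 31 other proteasome subunits had log2 fold changes between −0.07 and 0.11, with 20 above 0 and 0 that passed. Gca encodes grancalcin, a calcium-binding protein known from neutrophils, and ranged from 175 to 313 in WT, from 164 to 302 in Tbr1+/K228E, and from 197 to 375 in Tbr1K228E/K228E embryos (log2 fold change 0.23, standard error 0.20). Of the 6 other penta-EF-hand genes that were tested, 3 were higher in Tbr1K228E/K228E mice and 0 passed. Rbms1 encodes a protein that binds single-stranded nucleic acids, and ranged from 1009 to 1666 in WT, from 1068 to 1409.7 in Tbr1+/K228E, and from 1269.8 to 1712 in Tbr1K228E/K228E embryos. Its log2 fold change was 0.09 in Tbr1K228E/K228E and −0.09 in Tbr1+/K228E mice (standard error 0.12 for each), and the pair of related RBMS genes did not pass.

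In Tbr1K228E/K228E against WT mice, 4 of the 10 genes passed as higher and 0 as lower, whereas 0.0606% of all tested genes passed as higher (10 of 16507). The Tbr1K228E/K228E embryos lay above the WT embryos without overlap for 3 of the 10 (Tank, Tbr1, and Gcg), beside 0.321% of all genes. All 10 had a log2 fold change above 0, beside 48.7% of all genes, and their median was 0.55 beside −0.00 over all genes. In Tbr1+/K228E against WT mice, 0 of the 10 genes passed, as did 0% of all genes with limma. An unadjusted p under 0.05 was found for 295 genes, only 1.79% of all tested genes, Tbr1 and Gcg among them. No member was without overlap in that comparison (0.103% of all genes were), 8 of the 10 had a log2 fold change above 0 (48.8% of all genes), and their median was 0.07. In Tbr1K228E/K228E against Tbr1+/K228E mice, Tank alone passed (0.0242% of all genes passed as higher), Tank and Slc4a10 did not overlap (0.491% of all genes), and all 10 were above 0 (50.2% of all genes) with a median of 0.68. These 3 comparisons share embryos, so their counts do not support one another, and the 10 genes were listed with results of these data known.

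The genes were also grouped by distance from the start of Tbr1. Within 0.5 Mb, 3 other genes were tested (Tank, Psmd14, and Slc4a10), and all had a log2 fold change above 0 in Tbr1K228E/K228E against WT mice, with a median of 0.31. Between 0.5 and 1.5 Mb, 8 of 9 were above 0 with a median of 0.25, and 1 passed (Gcg). The 3 genes there that are not among the 10 were Ly75 (−0.11), Pla2r1 (0.07), and Kcnh7 (0.25), and none of them passed. Between 1.5 and 5 Mb, 17 of 26 genes were above 0 with a median of 0.03, and between 5 and 10 Mb 28 of 53 were, with a median of 0.00. No gene in those windows passed, and in the rest of chromosome 2, 599 of 1256 genes were above 0, with 0 that passed as higher and 2 as lower. An unadjusted p of limma under 0.05 was found for 66.7% of the genes within 0.5 Mb and 44.4% from 0.5 to 1.5 Mb. The share was 11.5% (3 of 26) from 1.5 to 5 Mb, 3.77% from 5 to 10 Mb, and 2.95% in the rest, beside 3.23% of all genes. In Tbr1+/K228E against WT mice the medians of the windows within 0.5 Mb and from 0.5 to 1.5 Mb were 0.05 and 0.13. Between the mutant genotypes, 21 of the 26 genes from 1.5 to 5 Mb were higher in Tbr1K228E/K228E embryos (80.8%, beside 50.2% of all genes), with a median of 0.07. Of these 26, 6 (23.1%) had an unadjusted p under 0.05, beside 3.3% of all genes, and 0 passed with limma. The log2 fold changes of these 6 lay on both sides of 0, from −0.54 to 0.48. The 10 genes fill most of the nearest windows, so that these values overlap with those given by gene.

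**Figure D4:**
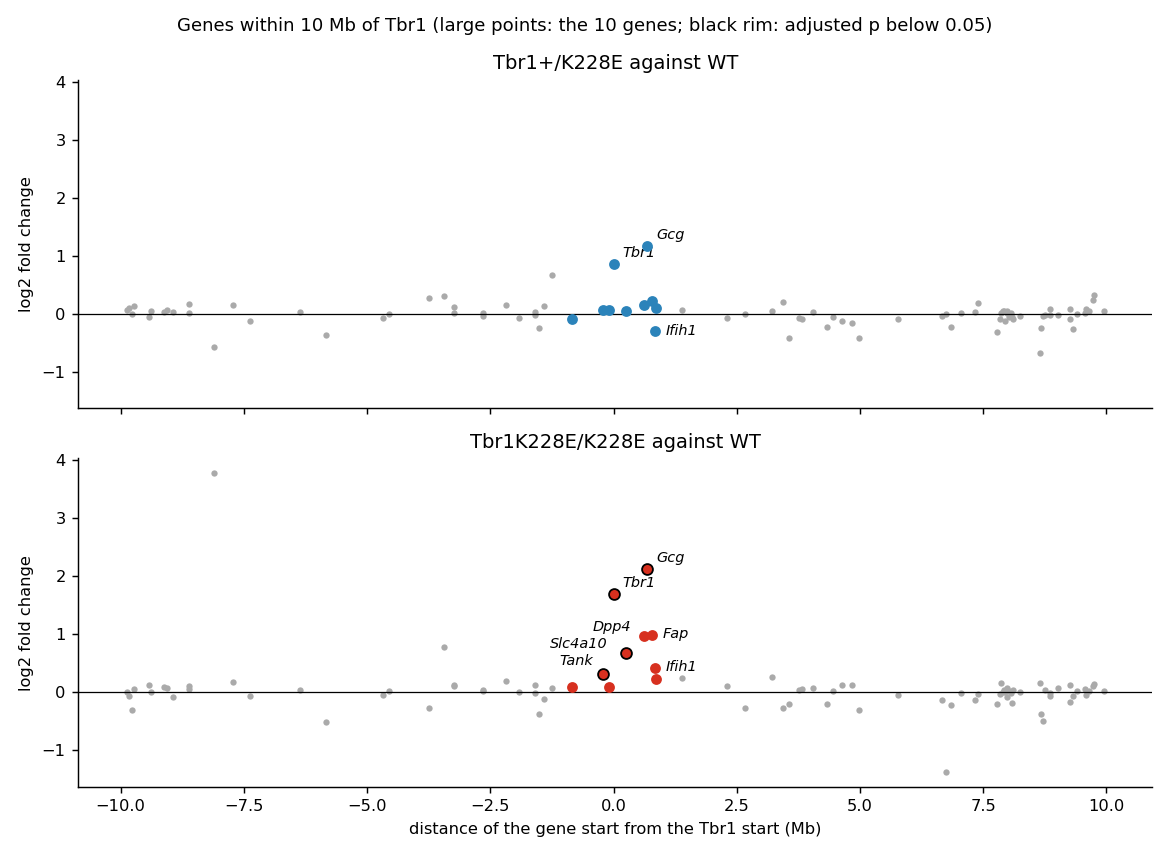
log2 fold change against WT (y axis) of the genes whose start lies within 10 Mb of the Tbr1 start (x axis, distance in Mb), in Tbr1+/K228E (top) and Tbr1K228E/K228E embryos (bottom). Large coloured points are the 10 genes, grey points the other tested genes, and black rims mark an adjusted p of limma below 0.05, which in the lower panel are Tank, Tbr1, Slc4a10, and Gcg. The highest grey point there, at 3.78, did not pass.

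Within a genotype, the 10 genes did not vary together as a block. Deviations from the genotype mean over the 15 embryos, which share depth scaling and tissue composition, correlated with those of Tbr1 most closely for Psmd14 (r = 0.93), Gcg (0.89), and Gca (0.76). They correlated negatively for Rbms1 (r = −0.88) and Slc4a10 (−0.49), and weakly for Tank (0.11), Fap (0.35), and Ifih1 (0.38), with Dpp4 at 0.56. Without the 2 embryos farthest from the median of Tbr1 (WT replicate 4 and Tbr1K228E/K228E replicate 2), r was 0.95 for Psmd14, 0.89 for Gcg, 0.77 for Gca, and −0.82 for Rbms1. The forebrain score moved with the same genes, with r = 0.89 for Psmd14, 0.74 for Gcg, 0.74 for Gca, and −0.87 for Rbms1. Psmd14 and Rbms1, which passed in no comparison, thus varied with the forebrain score nearly as closely as Tbr1 did (r = 0.93), and Tank, which passed, did not. The GABAergic neuron score had a similar pattern, with r = 0.91 for Tbr1, 0.85 for Psmd14, and 0.87 for Gcg. For Gca, Rbms1, and Tank its r was 0.73, −0.86, and −0.05.

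**Figure D5:**
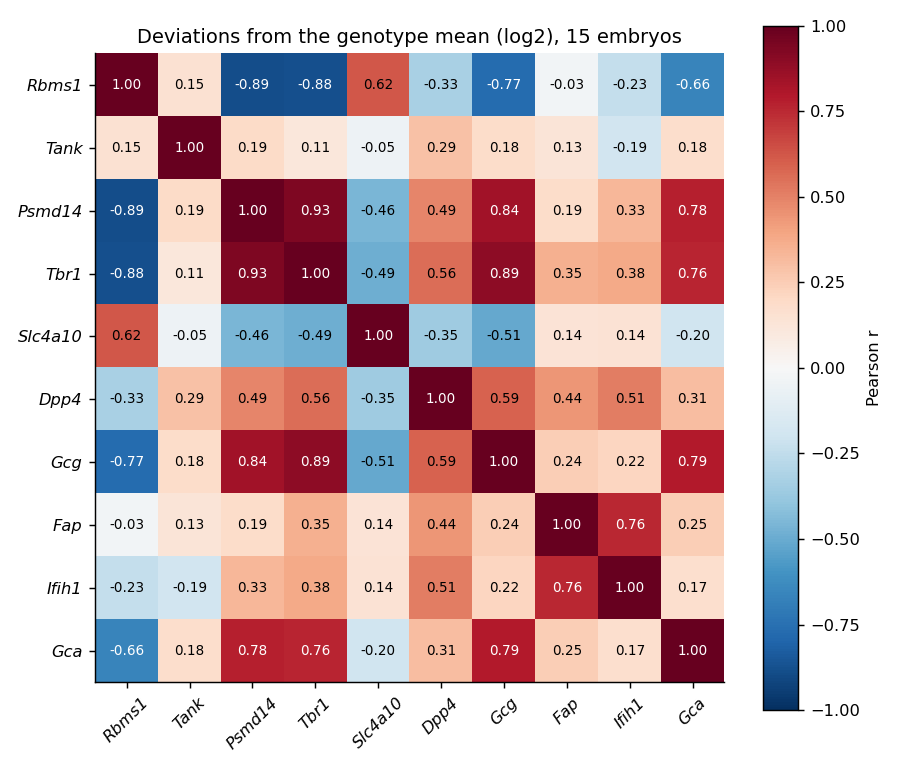
Pearson r between the deviations from the genotype mean (log2 values, 15 embryos) of each pair of the 10 genes, in their order along chromosome 2 on both axes, with red for positive and blue for negative r. Tbr1, Psmd14, Gcg, and Gca form a group with r from 0.76 to 0.93, Rbms1 is opposed to them, Fap and Ifih1 correlate with r = 0.76, and Tank is near 0 with most genes.

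Over the log2 values of all 15 embryos, which include the differences between genotypes, the 5 tested genes most like Tbr1 were Gcg (r = 0.97), Acvr1c (0.93), Schip1 (0.93), Trmt9b (0.90), and Sowahb (0.88). The same 5 genes led by Spearman's rho, with Gcg first (0.97). Gcg and Acvr1c, which encodes the activin receptor ALK7, are on chromosome 2, and Schip1, Trmt9b, and Sowahb are on chromosomes 3, 8, and 5. The start of Acvr1c lies at −3.45 Mb from that of Tbr1, in the window from 1.5 to 5 Mb. Its unadjusted p in Tbr1K228E/K228E against WT mice was 0.0014 with limma. Against WT, the log2 fold change in Tbr1K228E/K228E mice was 0.25 for Schip1 (adjusted p = 0.0318 with limma), 0.82 for Trmt9b (adjusted p = 0.0318), and 2.47 for Sowahb (adjusted p = 0.00437), and it was 0.78 for Acvr1c, which did not pass. Within genotypes, the deviations of these 5 correlated with those of Tbr1 with r between 0.55 and 0.90. Tank was 13th and Psmd14 51st in this order. Of the relatives and partners of the 10 genes, tested in 10 lists, 0 passed in any comparison, with 12 other T-box genes (3 higher and 9 lower in Tbr1K228E/K228E mice) and 4 cofactors of TBR1 among them.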

How the data were processed

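RNA from the brain of 15 embryos was sequenced after preparation with the TruSeq RNA kit v2. The authors estimated transcript abundance with Salmon 0.11.2 on GRCm38 with GC bias correction, imported it with tximport in R 3.5.3, and divided it by DESeq2 1.22.2 size factors, so the values that the authors deposited are a normalized signal per gene (normalized read counts) and not whole reads. Genotype, sex, and replicate number were taken from the sample labels. Of 19475 identifiers, 19469 matched GENCODE M21, which gave coordinates and exon lengths.

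Genotypes were compared in R 4.3.3 with limma 3.58.1 (lmFit, eBayes with a trend) on log2(value + 1), which understates changes of low genes, for the 16507 genes whose mean was 5 or more. All 10 genes passed this filter. The Benjamini–Hochberg correction was applied over these genes. The exact permutation test for single genes was two-sided, with 5 embryos in each group (252 splits, smallest p 0.00794). Embryos of a genotype were treated as separate animals. The procedure was tested on simulated data. The named genes were the 10 members, other genes within 1.5 Mb of Tbr1 past the threshold (there were none), listed relatives past the threshold (none), and the 5 genes most like Tbr1. Kcnh7, Ly75, and Pla2r1 are named as the only other tested genes within 1.5 Mb. The 10 genes and the lists were chosen with earlier results of these data known. As alternatives, the pseudocount was set to 0.1 or 10, the filter was dropped or raised to 50, and upper-quartile rescaling, quantile normalization, a sex term, the replicate block, the 2 compared genotypes alone, robust eBayes, hindbrain and meningeal scores as covariates, the linear scale, other distance windows, Spearman correlation, and leaving out each embryo in turn were used. The forebrain score as a covariate was chosen after seeing the data, and it covers 6 markers because others of the list are not reported here.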

Additional observations from a re-analysis of the deposited data

Results flagged for a closer look

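Dpp4 was flagged in the Tbr1K228E/K228E embryos because a sample lay far from the others. Replicate 5, a male, had a normalized read count of 341.6, and the next embryo, the other male, had 160.8, a gap of 0.754 of the whole range of the 5 embryos (Dixon's 95% critical value is 0.71). Chance flags about 1 in 20 groups, and 30 groups, 10 genes in 3 genotypes, were examined. Replicate 5 also had the highest meningeal (22115), endothelial (9673), microglial (1604), and choroid plexus (18260) marker sums of its genotype, and their part in the Dpp4 value was not tested. Without replicate 5, the log2 fold change of Dpp4 against WT was 0.68 in place of 0.97, and neither passed over all genes.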

How the results depend on the processing

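In Tbr1K228E/K228E against WT mice, Tank and Tbr1 passed in all 10 fits that left out an embryo and in all 12 other alternatives. The count of the 10 genes that passed, 4 in the reported fit, was 2 with the 2 compared genotypes alone and 2 to 3 with an embryo left out, where Gcg or Slc4a10 or both were lost. Leaving out WT replicate 1 or 5, or Tbr1K228E/K228E replicate 3, 4, or 5, gave 2. Gcg was left out by the filter at a mean of 50. In Tbr1+/K228E against WT mice the count was 0 in the reported fit and with any embryo left out (0 to 0). In Tbr1K228E/K228E against Tbr1+/K228E mice it was 1 in the reported fit, 0 to 1 with an embryo left out, 0 with the hindbrain and meningeal scores as covariates, and 3 (Tank, Tbr1, and Slc4a10) with the forebrain score, an alternative chosen after seeing the data. The 1 that remained without Tbr1K228E/K228E replicate 1 was Slc4a10, not Tank. The causes of these changes were not tested, other than that fewer embryos entered some fits. No fold change of a gene that passed changed sign.

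Replicate numbers are given by the labels, and embryos that share a number share their sex but are different animals. Their deviations correlated with r from 0.02 to 0.51 (Tbr1K228E/K228E and WT), −0.21 to 0.22 (Tbr1+/K228E and WT), and −0.23 to 0.35 (Tbr1K228E/K228E and Tbr1+/K228E). In the same order, r was over 0.1 in 4, 2, and 2 of 5 pairs, and 2, 1, and 2 of 5 correlated best with their own number. With 5 pairs in each comparison, these values cannot decide whether embryos of a number have more in common than their sex. With the replicate block, 3 of the 10 genes passed in Tbr1K228E/K228E against WT mice (Slc4a10 was lost), 0 in Tbr1+/K228E against WT mice, and 0 in Tbr1K228E/K228E against Tbr1+/K228E mice.

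The genes with values under about 100, Gcg, Fap, Ifih1, and Dpp4 in part, are limited by depth and spread: the standard error of their log2 fold changes was 0.28 to 0.43, against 0.04 for Tank. Genotypes cannot be compared for cell composition in bulk tissue, and the tissue is described both as whole brain and as forebrain.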

Other observations

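The labels give 3 females and 2 males of each genotype, so effects can be set side by side by sex, although a male effect rests on 2 embryos against 2. In Tbr1K228E/K228E against WT mice the log2 fold change was 1.41 in females and 2.12 in males for Tbr1, 1.63 and 2.87 for Gcg, 0.30 and 0.33 for Tank, and 0.81 and 0.48 for Slc4a10. For Dpp4 it was 0.13 in females and 2.23 in males. For Ifih1 in Tbr1+/K228E against WT mice it was 0.13 in females and −0.94 in males. No interaction of genotype with sex passed over all genes (lowest adjusted p 0.752 and 0.734 with limma in the 2 comparisons), and the male WT embryos had the lowest Dpp4 values of their genotype, 46.1 and 52.6.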
